A study of Mus musculus with 39 samples.

Results

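The constitutive proteasome subunits were followed in CD8+ T cells sorted from mouse MCA-205 tumours and in a second set of libraries labelled bulk tumour. Members were the genes whose symbol begins with Psma, Psmb, Psmc or Psmd and ends in a number, without the immunoproteasome genes Psmb8, Psmb9 and Psmb10, and with a mean of at least 1 TPM (a level per transcript length, scaled to a fixed total per library) in either set. Of 36 matching symbols 35 were kept, among the 28023 symbols of each table. The gene left out was Psma8, an alpha subunit of germ cells, with means of 0.0509 TPM in the CD8 set and 0 TPM in the other. The 35 members were 7 alpha and 8 beta subunits of the core particle, 6 ATPases and 11 other subunits of the regulatory particle, and 3 chaperones that assemble its base.

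The proteasome destroys proteins that carry chains of ubiquitin. Its core particle is a barrel in which rings of beta subunits hold the cutting sites and rings of alpha subunits guard the entrance, and its regulatory particle binds, deubiquitinates, unfolds and threads the substrate. In lymphocytes, interferon-induced immunoproteasome subunits can replace the catalytic beta subunits and change the peptides that reach MHC class I molecules.

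Wild-type C57Bl6 mice received stool transfer (FMT) from stools labelled HV kept for 6 days with either CZA or CZA+DAV132. At 2 weeks after FMT they were given 800000 MCA-205 fibrosarcoma cells under the skin. Once tumours measured 25 to 35 mm2, the mice had 4 intraperitoneal injections, every 3 days, of 250 ug anti-PD-1 antibody or isotype antibody, and tumours were taken 2 days after the last. The sorted CD8 cells came from a repeat of the experiment that used the same FMT material. The 4 groups of each set were CZA with isotype, CZA with anti-PD-1, CZA+DAV132 with isotype and CZA+DAV132 with anti-PD-1. All mice thus carried the tumour line and had received stool that was kept with CZA. Each group had 5 libraries, except CZA+DAV132 with isotype in the set labelled bulk tumour, which had 4. The labels do not tie libraries to mice, so p-values measure only how libraries differ, which may be partly technical. The stool of an arm was not replicated, and an effect of DAV132 cannot be told apart from other differences between the stools.

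Sequencing depth cannot be read from TPM and is unknown here. All 12 T cell markers had a median of at least 1 TPM in both sets, and their summed level was 3987 to 17645 TPM in CD8 libraries and 4336 to 14721 TPM in the other set. In the latter the fibroblast and fibrosarcoma markers summed to 362 to 2260 TPM, with a median of 700 TPM against 302 TPM in the CD8 set. Of these 10 markers 7 had a median of at least 1 TPM there, and Pdgfrb had a median of 0. T cell levels in the range of sorted cells go against whole tumour, while the fibroblast levels were above those of the CD8 set. The set is therefore named by its label. Repeat entries of the annotation took 0.307% to 69.6% of the TPM of the CD8 libraries, with 69.6% in library 19, 28.3% in library 16 and 25.2% in library 1, and 50.9% in library T026 of the other set, which lowers every other gene's TPM there. Counts of members called, and the calls behind them, are given with and without libraries 16 and 19 or T026.

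The promoter sequences of a pair of catalytic core subunits are shown first, because the factor NFE2L1, a known activator of proteasome genes, binds elements of this kind. The search used TGACNNNGC on both strands of RefSeq promoters, from 250 bases before to 50 bases after the start site (GRCm38.p6). The capitals mark the match. Psmb5 encodes the chymotrypsin-like subunit, and its site lay at chr14:54618026-54618050, minus strand, with the match at -47 bases. Psmb6 encodes the caspase-like subunit, and its site lay at chr11:70525340-70525364, plus strand, with the match at -9 bases.
Psmb5: tgaagttgTGACGTCGCggcgttgc
Psmb6: aaagagagTGACGGAGCgctttacg

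The base chaperone gene Psmd9 held the third such match close to its start, at -31 bases of the plus strand in chr5:123228151-123228175, and it is printed for comparison with the catalytic genes.
Psmd9: ctagccggTGACCCCGCccacttcc
Psmc6 and Psmd12 held a match at -227 and -247 bases, so 5 of the 29 members in the promoter table had one, 17.2%, against 12.4% of all 32851 promoters. The match was in 2 of 12 core promoters and 2 of 14 regulatory particle promoters. CCAAT, on either strand, was in 12 of 29 members, 41.4%, against 37.4% of all promoters, with 7 of 12 core and 4 of 14 regulatory particle promoters. The member shares count genes with a match in any of their promoters, and the shares of all count single promoters, so the units differ. These are letters found in a window and show no binding.

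Core genes were the most abundant members in sorted CD8 T cells. Psmb3, a structural beta subunit, had the highest mean of the members at 798 ± 275 TPM (SD, n = 20), followed by the alpha subunits Psma7 at 538 ± 185 TPM and Psma2 at 516 ± 187 TPM. The median of the core gene means was 242 TPM and that of the regulatory particle genes was 58.2 TPM. Leaving out Psmb11, 13 of 14 core genes had a higher mean than every regulatory particle gene. The exception was the alpha gene Psma5 at 113 ± 49 TPM, beside Psmd8, the highest regulatory particle gene, at 115 ± 43.9 TPM, and these did not differ beyond their spread. Psmb11, the beta subunit of the thymic cortex, was at 1.07 ± 0.41 TPM, between 0.625 and 2.37 TPM in the 20 libraries.

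Among the catalytic subunits of the CD8 set, Psmb6 had the highest mean, 437 ± 153 TPM (SD, n = 20). Psmb5 followed at 233 ± 90.3 TPM and Psmb7, the trypsin-like subunit, at 117 ± 39.2 TPM. Of the ATPases that form the unfolding ring, Psmc4 was highest at 111 ± 28.8 TPM and Psmc6 lowest at 51.3 ± 13.8 TPM. Psmd4, a ubiquitin receptor, averaged 112 ± 24.4 TPM and Psmd14, the deubiquitinase of the lid, 94.8 ± 34.2 TPM. The scaffold genes of the base were low for the regulatory particle, with Psmd1 at 36.6 ± 9.71 TPM and Psmd2 at 25.4 ± 6.32 TPM. The base chaperones Psmd10, Psmd5 and Psmd9 were at 32.9 ± 12, 15.9 ± 5.31 and 12.5 ± 4.03 TPM.

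The core lead was smaller in the libraries labelled bulk tumour, where single genes such as Psmd10, Psmd5 and Psmd14 varied more between libraries. Psma3, an alpha subunit, was highest with a mean of 421 TPM and a range of 191 to 567 TPM over 19 libraries, and 8 of 14 core genes without Psmb11 exceeded every regulatory particle gene. The order of the 35 members resembled that in CD8 cells, with a Spearman rho of 0.87 across genes, which share libraries and are not replicates. The tables may have been normalised separately, so the following ratios between them carry that limit. Psmb2, a beta subunit, had a mean 4.1 times and Psmb3 3.17 times as high in the CD8 set, while Psmd1 and Psmd2 had means 0.365 and 0.358 times as high. Psmd14 was at 31.3 to 423 TPM, and the 423 TPM came from library T991. Psmd10 was listed at 0 in T987 and was at 109 TPM in T986, and Psmd5 was at 0.48 to 73.2 TPM.

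**Figure D1:**
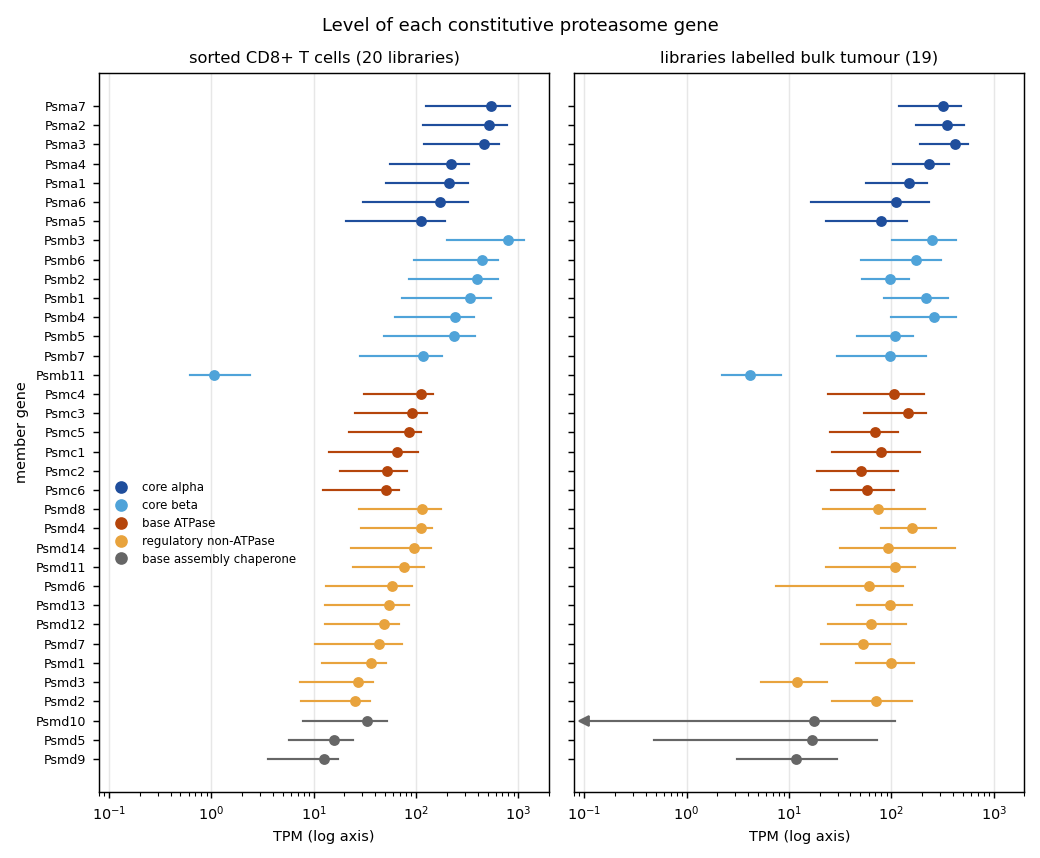
Mean TPM of each of the 35 members (dot, log axis) with the range over libraries (line) in the CD8 set, left, and in the libraries labelled bulk tumour, right, coloured by class. An arrow marks the library with Psmd10 listed at 0. Core genes other than Psmb11 lie to the right of most regulatory particle genes in CD8 cells, with Psmb3 at 798 TPM.

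Anti-PD-1 against isotype in the CZA+DAV132 arm gave the difference in CD8 cells. Of 35 members 25 were called lower and 0 higher. Calls are by limma's moderated test on log2(TPM + 1) with Benjamini-Hochberg adjusted p under 0.05 over 12942 genes. In the same comparison 19.4% of all genes tested were called lower and 4.12% higher. The median log2 change was -0.97 over the members and -0.34 over all genes. Core genes were called lower in 14 of 15 cases, with a median of -1.26. Regulatory particle genes were called lower in 8 of 17, with a median of -0.74, and so were all 3 base chaperones. The change was negative in all 35 members, called or not.

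These counts depend on libraries 16 and 19, whose repeat shares and low T cell marker sums (3987 and 4028 TPM, against 11456 to 13318 TPM in libraries 17, 18 and 20) stand beside the result, and the part of either in it was not tested. Without them 11 members were called, against 5.2% of all genes called lower, and the median change was -0.61 against -0.01 over all genes. The 11 were the core genes Psma1, Psma2, Psmb1, Psmb2, Psmb3, Psmb5, Psmb6 and Psmb7 and the regulatory particle genes Psmc1, Psmd8 and Psmd14, so that 14 called members, the 3 chaperones among them, no longer passed. After TPM was rescaled without the 16 repeat entries, 19 members were called, 13 of the core and 5 of the regulatory particle, against 9.38% of all genes lower, with a median of -0.46 against 0.05. A fit of only the 10 libraries compared called 15, against 6.6% of all genes lower. Fewer cells of a type and less RNA per cell cannot be told apart in such libraries.

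Abundant genes as a whole were lower in this comparison. Among 326 genes tested with a mean of 300 to 1200 TPM, 67.5% were called lower and the median change was -1.02. The 7 core genes at that level, such as Psmb3 and Psma7, had a median of -1.28. Among 617 genes at 100 to 300 TPM, 63.2% were called lower with a median of -0.95, and the 7 core genes there, such as Psmb5 and Psma6, had a median of -1.26. At 30 to 100 TPM, 43.5% of 1600 genes were called lower with a median of -0.76, beside 6 of 12 regulatory particle genes with a median of -0.82. The regulatory particle genes thus changed about as much as other genes of their level, and the core genes somewhat more than theirs, which was not tested.

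**Figure D2:**
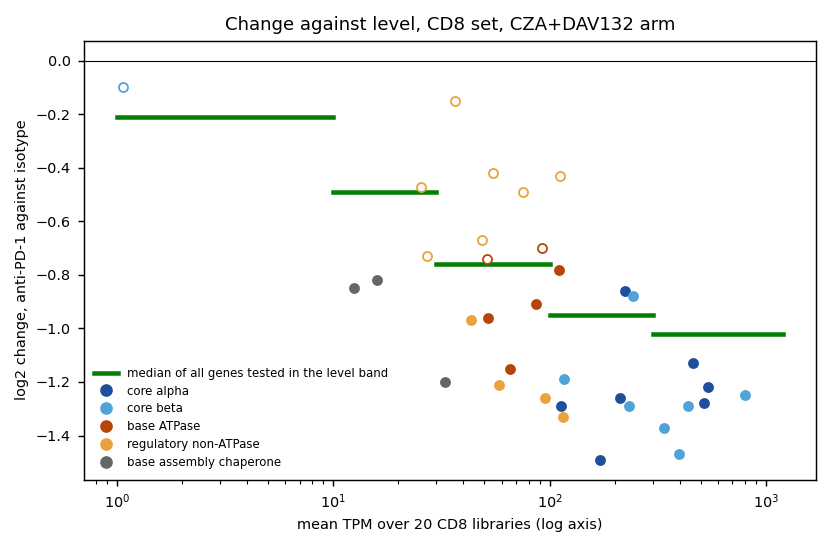
Log2 change of each member on anti-PD-1 against isotype in the CZA+DAV132 arm of the CD8 set (vertical axis) against its mean TPM (horizontal, log axis). Filled dots passed the test, and green bars are medians of all genes tested per level band, from -0.21 at 1 to 10 TPM to -1.02 at 300 to 1200 TPM.

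The catalytic subunits of the core illustrate the fall. Psmb6 was at 564, 481, 585, 423 and 604 TPM in the isotype libraries 11 to 15 and at 168, 294, 286, 96.3 and 333 TPM in the anti-PD-1 libraries 16 to 20. Every anti-PD-1 library lay below every isotype library, and the log2 change was -1.29 (SE 0.30, limma adjusted p = 0.00845). Psmb5 was at 243, 291, 282, 186 and 350 TPM with isotype and at 95.5, 131, 150, 48.8 and 158 TPM with anti-PD-1, again without overlap. Its log2 change was -1.29 (SE 0.31, limma adjusted p = 0.00886). Psmb7 fell from 131, 146, 141, 121 and 164 TPM to 49.3, 75.1, 81.6, 28.5 and 96.2 TPM, a log2 change of -1.19 (SE 0.28, limma adjusted p = 0.00886). Without libraries 16 and 19 the 3 genes still passed, at limma adjusted p of 0.0333, 0.045 and 0.0367.

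The largest change among the members was in the alpha gene Psma6. It was at 179, 180, 211, 145 and 274 TPM with isotype and at 55, 81, 98.6, 30.7 and 109 TPM with anti-PD-1, a log2 change of -1.49 (SE 0.34, limma adjusted p = 0.0085). The groups did not overlap, but without libraries 16 and 19 the adjusted p was 0.0531. The structural beta subunits Psmb2 and Psmb1 followed at -1.47 (SE 0.31) and -1.37 (SE 0.29), with limma adjusted p of 0.00715 and 0.00741. Psmb2 was at 521, 472, 518, 419 and 595 TPM with isotype and at 136, 231, 255, 86.3 and 280 TPM with anti-PD-1. The alpha genes Psma5, Psma2 and Psma1 changed by -1.29, -1.28 and -1.26. Psma4 at -0.86 and Psmb4 at -0.88 were the core genes with the smallest called changes, and like Psma5 they did not pass without libraries 16 and 19 (limma adjusted p = 0.105, 0.0655 and 0.061). The thymic gene Psmb11 had -0.10 (limma adjusted p = 0.773).

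Within the regulatory particle the genes called lower were the ATPases Psmc1, Psmc2, Psmc4 and Psmc5 and the lid genes Psmd6, Psmd7, Psmd8 and Psmd14. Psmd8, a lid subunit, was at 146, 131, 141, 105 and 176 TPM with isotype and at 40.3, 64.5, 78.5, 27.9 and 81 TPM with anti-PD-1, a log2 change of -1.33 (SE 0.29, limma adjusted p = 0.00767). Psmd14 was at 93.7, 104, 116, 96.7 and 136 TPM with isotype and at 29.6, 57.7, 60, 23.1 and 74.5 TPM with anti-PD-1, a log2 change of -1.26 (SE 0.28, limma adjusted p = 0.00814). Neither gene had an anti-PD-1 library within the isotype range, and without libraries 16 and 19 the changes were -0.88 and -0.76 (limma adjusted p = 0.0312 and 0.0338).

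The scaffold and ubiquitin receptor genes did not pass. Neither did the ATPase genes Psmc3 and Psmc6 or the lid genes Psmd3, Psmd11, Psmd12 and Psmd13. Psmd1, a scaffold of the base, was at 38.8, 38.2, 38.5, 35.4 and 37 TPM with isotype and at 33, 50.8, 44.1, 12.1 and 47.5 TPM with anti-PD-1. Libraries 17, 18 and 20 lay above every isotype library and library 19 far below them, and the log2 change was -0.15 (SE 0.30, limma adjusted p = 0.749). Psmd4 was at 101, 112, 115, 103 and 129 TPM with isotype and at 98.4, 104, 101, 29.1 and 124 TPM with anti-PD-1, so that library 19 alone stood apart. Its log2 change was -0.43 (SE 0.29, limma adjusted p = 0.286). Psmd2 had -0.47 and Psmd13, a lid subunit, -0.42, and under median-ratio scaling, which moved the median of all genes from -0.34 to 0, Psmd1, Psmd4 and Psmd13 had 0.31, 0.04 and 0.05.

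Counted without a model, every anti-PD-1 library was below every isotype library in 24 of 35 members, against 12.1% of all genes tested. The opposite, every library above, held for 0 members and 2.85% of all genes. The 24 were 14 core genes, 7 regulatory particle genes and the 3 chaperones.

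**Figure D3:**
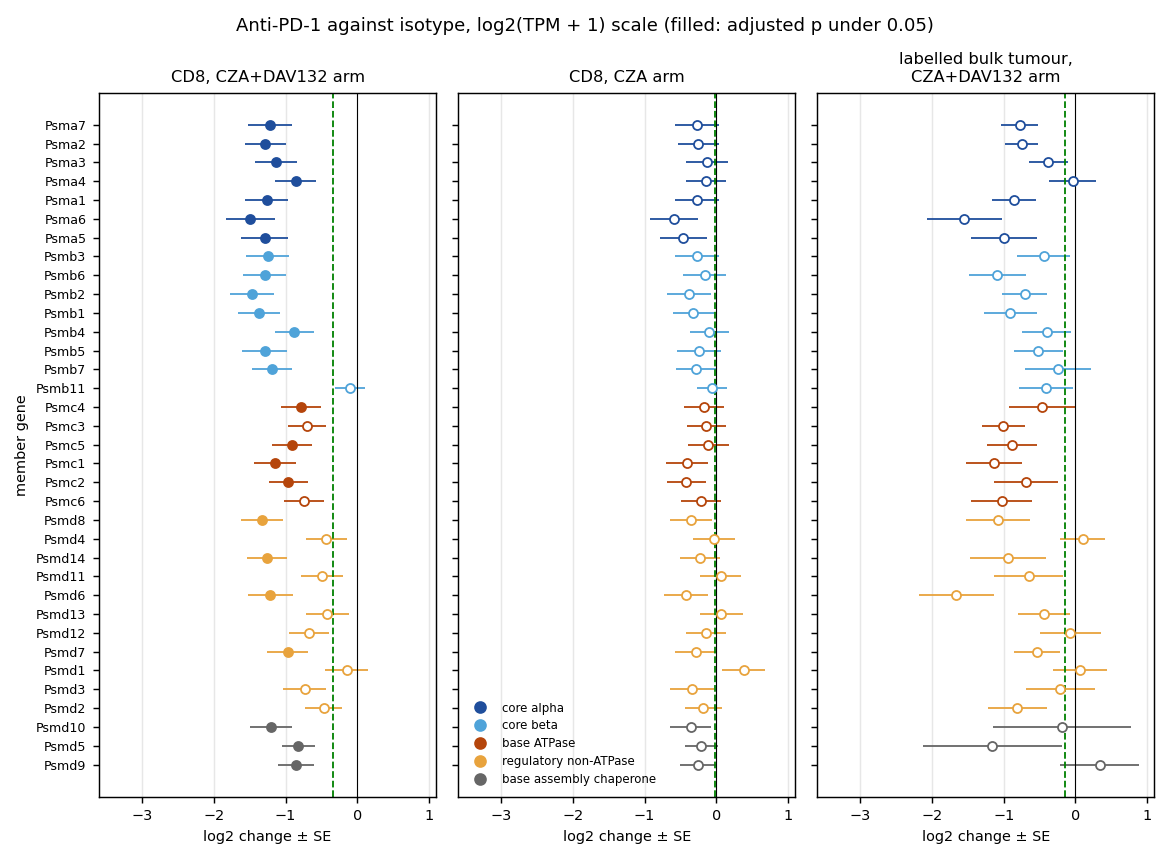
Log2 change (dot) ± SE of each member on anti-PD-1 against isotype, for CD8 cells in the CZA+DAV132 arm, left, and in the CZA arm, middle, and for the CZA+DAV132 arm of the libraries labelled bulk tumour, right. Filled dots have limma adjusted p under 0.05, and the green dashed line is the median of all genes, -0.34, -0.02 and -0.15. Only the left panel has filled dots, 25 of 35.

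In the CZA arm anti-PD-1 gave no called member in CD8 cells. The median change was -0.24 over the members and -0.02 over all genes, 0% of genes were called lower and 0.0155% higher, and 0 members had an unadjusted limma p under 0.05. Psma6 had the smallest p, with a log2 change of -0.59 (SE 0.34, limma adjusted p = 0.997). Psmb5 had -0.24 (SE 0.31) and Psmd14 -0.23 (SE 0.28), both with overlapping groups. No member had groups without overlap, against 0.44% of all genes below and 1.15% above. Psmb5 was at 194, 284, 302, 307 and 373 TPM with isotype and at 303, 204, 144, 312 and 295 TPM with anti-PD-1.

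The difference between the arms in the anti-PD-1 effect, the interaction, had a median of -0.77 over the members against -0.37 over all genes. No member passed, and 0% of all genes passed in either direction. An unadjusted limma p under 0.05 was found for 12 members and for 15.7% of all genes. Psmb6 had the smallest p, with an interaction of -1.13 (SE 0.42, limma adjusted p = 0.29). Psmb5 had -1.05 (SE 0.43, limma adjusted p = 0.291) and Psmd14 -1.03 (SE 0.40, limma adjusted p = 0.29). Without libraries 16 and 19 the members' median was -0.39 against 0.00 over all genes. In that fit 1 member and 9.24% of all genes had an unadjusted limma p under 0.05. The effect of the antibody was thus not shown to differ between the arms.

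CZA+DAV132 against CZA under anti-PD-1 shares the treated libraries with the first comparison. No member passed, and 0.0386% of all genes were called lower. An unadjusted limma p under 0.05 was found for 31 of 35 members and for 33.5% of all genes. The median change was -0.83 over the members and -0.40 over all genes. Psmd14 had the smallest p, from 120, 81.1, 71.1, 125 and 114 TPM in CZA libraries 6 to 10 to the values given for libraries 16 to 20, a log2 change of -1.14 (SE 0.28, limma adjusted p = 0.0683). The groups overlapped at library 20, as they did in some library for each member, against 2.58% of all genes without overlap below and 0.386% above. Psmb5 had -1.16 (SE 0.31, limma adjusted p = 0.0683). The count rested on single libraries and settings, since 23, 30 and 22 members passed without library 18, 20 or 8, where 17%, 29.2% and 10.3% of all genes were called lower. With array weights, which give libraries that stand apart less say, 16 members passed, against 3.69% of all genes. Without libraries 16 and 19 no member passed.

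CZA+DAV132 against CZA under isotype showed the smallest differences. No member passed or had an unadjusted limma p under 0.05, 0% of all genes passed, and the median change was -0.08 against -0.06 over all genes. Psmd13 had the smallest p, with -0.37 (SE 0.30, limma adjusted p = 1). Psmb5 and Psmd14 both had -0.11, with SE of 0.31 and 0.28. Groups overlapped in all 35 members, while 0.24% of all genes lay fully below and 0.309% fully above.

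Set against the regulatory particle, the core was lowest on average in the CD8 libraries of CZA+DAV132 with anti-PD-1. The summed core level was 5987, 5596, 5950, 4696 and 6721 TPM in the isotype libraries of that arm and 1900, 3122, 3375, 1119 and 3821 TPM with anti-PD-1. The summed regulatory particle level was 1165, 1245, 1280, 1095 and 1461 TPM with isotype and 628, 874, 947, 305 and 1064 TPM with anti-PD-1. Both sums lay lower in every anti-PD-1 library than in every isotype library of the arm.

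The ratio of the 2 sums does not depend on the total a library is scaled to, which repeat entries change. It was 5.14, 4.49, 4.65, 4.29 and 4.6 with isotype and 3.02, 3.57, 3.56, 3.67 and 3.59 with anti-PD-1 in the CZA+DAV132 arm, so the groups did not overlap. Without libraries 16 and 19 the anti-PD-1 mean was 3.57 ± 0.0153 (SD, n = 3). The lack of overlap there follows from that of all 5 libraries and is no separate check. In the CZA arm the ratio was 4.23 ± 0.404 with isotype and 3.99 ± 0.397 with anti-PD-1 (SD, n = 5 each), with overlap. The CZA libraries with anti-PD-1, at 3.54 to 4.6, also overlapped those of CZA+DAV132 with anti-PD-1. In the CZA+DAV132 arm all genes at 100 to 300 and 300 to 1200 TPM had medians of -0.95 and -1.02, against -0.76 at 30 to 100 TPM. The part of this trend with level in the ratio was not tested. No p is given for a score over the members.

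In the libraries labelled bulk tumour the ratio of core to regulatory particle was about the same in all groups. It was 1.96 ± 0.416 (SD, n = 5) in CZA with isotype, 2.18 ± 0.0871 (n = 5) in CZA with anti-PD-1, 2.08 ± 0.161 (n = 4) in CZA+DAV132 with isotype and 2.04 ± 0.26 (n = 5) in CZA+DAV132 with anti-PD-1. The summed core level was 3529, 3059, 3330 and 3289 TPM in CZA+DAV132 with isotype and 2488, 1841, 1217, 2991 and 2539 TPM with anti-PD-1. Each anti-PD-1 library was below each isotype library, and T026 was the lowest at 1217 TPM.

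**Figure D4:**
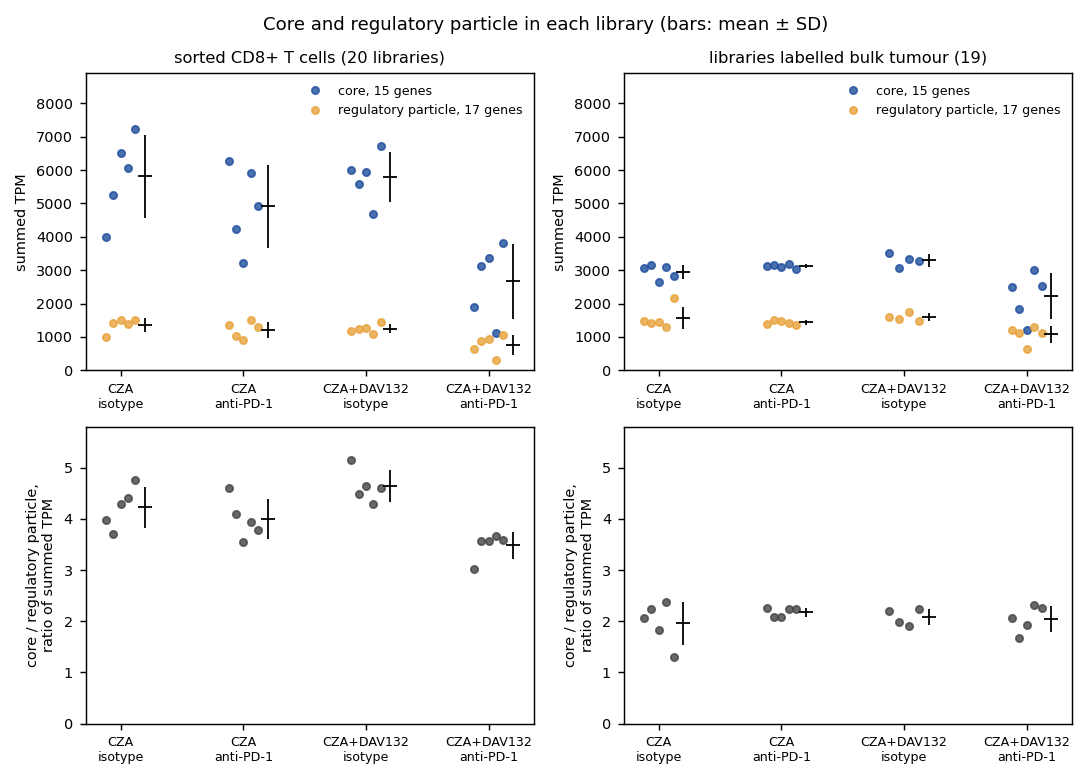
Summed TPM of the 15 core and 17 regulatory particle genes (top) and their ratio (bottom) in each library (dots) by group, with mean ± SD (black bars), for the CD8 set, left, and the libraries labelled bulk tumour, right. The CD8 ratio lies at 3.02 to 3.67 in CZA+DAV132 with anti-PD-1 and at 4.29 to 5.14 in CZA+DAV132 with isotype.

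The balance of constitutive and immunoproteasome catalytic subunits was taken as a ratio within each library. Psmb6 over Psmb9, which replaces it, was 1.11 ± 0.131 in CD8 cells of CZA+DAV132 with isotype and 0.651 ± 0.0476 with anti-PD-1 (SD, n = 5 each), and the groups did not overlap (lowest 0.991 against highest 0.694). Psmb9 itself had a log2 change of -0.53 (limma adjusted p = 0.177), smaller than that of Psmb6. Psmb7 over Psmb10 was 0.958 ± 0.0675 with isotype and 0.715 ± 0.0719 with anti-PD-1, also without overlap. Psmb5 over Psmb8 was 0.404 ± 0.0359 with isotype and 0.426 ± 0.141 with anti-PD-1, with overlap, and library 16, at 0.671, set the direction: without it the anti-PD-1 mean was 0.364 ± 0.0372 (n = 4). Psmb8 fell by 1.32 on the log2 scale (limma adjusted p = 0.0105), and without libraries 16 and 19 its change was -0.78 (limma adjusted p = 0.0821). Without these libraries Psmb6 over Psmb9 was 0.651 ± 0.0633 and Psmb7 over Psmb10 0.671 ± 0.0343 (n = 3) with anti-PD-1. In the CZA arm Psmb6 over Psmb9 was 1.08 ± 0.0622 with isotype and 0.869 ± 0.163 with anti-PD-1, with overlap.

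In the libraries labelled bulk tumour Psmb6 over Psmb9 was 0.583 ± 0.275 (SD, n = 4) in CZA+DAV132 with isotype and 0.229 ± 0.0597 (n = 5) with anti-PD-1. The highest anti-PD-1 library, 0.314, lay below the lowest isotype library, 0.329. The other pairs overlapped between these groups, with Psmb7 over Psmb10 at 1.04 ± 0.603 and 0.892 ± 0.201.

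**Figure D5:**
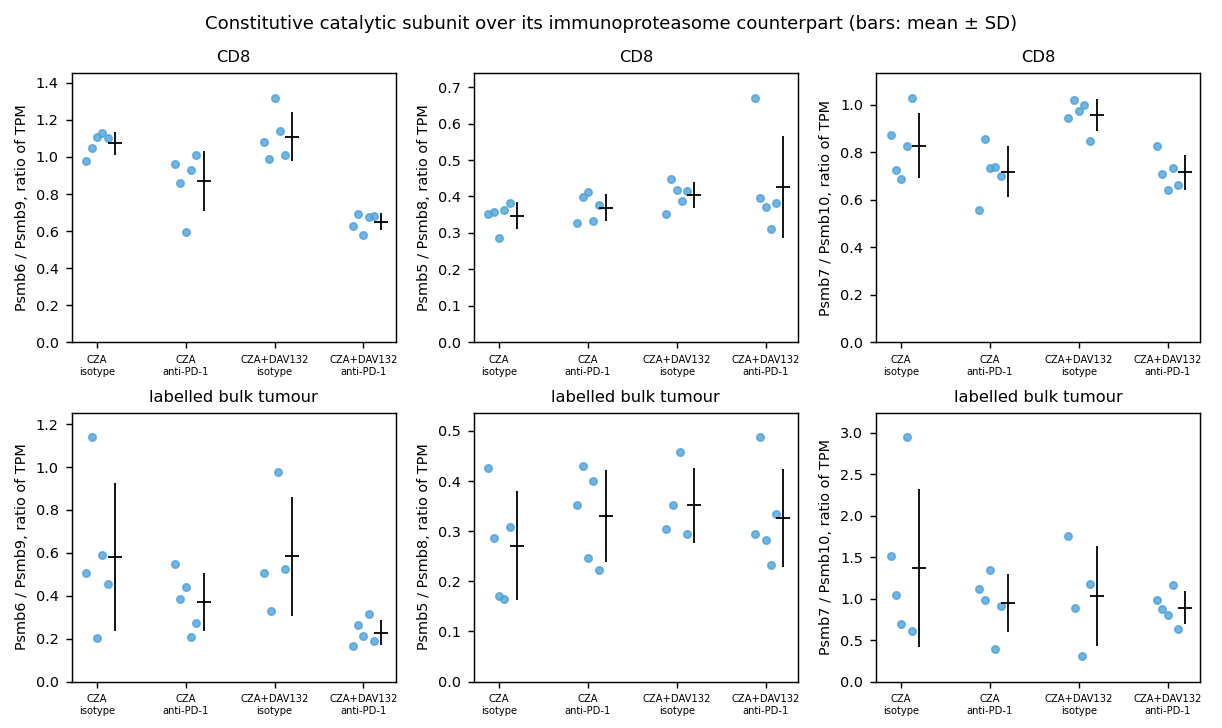
Ratio of TPM of each constitutive catalytic subunit to its immunoproteasome counterpart in each library (dots) by group, with mean ± SD (black bars), for the CD8 set, top, and the libraries labelled bulk tumour, bottom. Psmb6 over Psmb9 is lowest in CZA+DAV132 with anti-PD-1, at 0.651 and 0.229 on average.

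Tests on the libraries labelled bulk tumour called no member in any of the 5 comparisons. For anti-PD-1 against isotype in the CZA+DAV132 arm the median was -0.69 over the members and -0.15 over all genes, where limma called 0.21% of 13326 genes lower and 0.03% higher. An unadjusted limma p under 0.05 was found for 14 members and 10.3% of all genes. In 10 of 35 members no anti-PD-1 library reached the lowest isotype library, 5 core and 5 regulatory particle genes, against 4.43% of all genes tested, and fully above in 0 members, against 2.06%. Psmc3, an ATPase, had the smallest p. It was at 168, 204, 186 and 196 TPM with isotype and at 123, 102, 54.2, 117 and 86.5 TPM with anti-PD-1, a log2 change of -1.01 (SE 0.30, limma adjusted p = 0.142). With array weights it was the only member that passed, at -0.89 (limma adjusted p = 0.0398), where 1.32% of all genes were called lower. Without T026 the median was -0.60 against -0.04 over all genes, and 9 members and 8.46% of all genes had an unadjusted limma p under 0.05.

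Beside this difference, the endothelial markers summed to 1757 to 5831 TPM in CZA+DAV132 with anti-PD-1 and to 816 to 1432 TPM with isotype, with Cdh5 and Tek at a median of 0. Of the 5 only Pecam1 and Vwf were tested, with changes of 1.39 and -0.27 in opposite directions, so the sum does not stand for the list. The macrophage and monocyte markers summed to 54.1 to 111 TPM and 49.3 to 326 TPM in the same order. The part of these markers in the members' values was not tested.

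Some marker lists of other cells also moved in the CD8 comparison of that arm, where 19.4% of all genes were called lower and 4.12% higher. The median change over all genes was -0.34. The macrophage and monocyte markers had a median change of -1.31, with 4 of 11 called lower, and summed to 46.7 to 230 TPM with anti-PD-1 and 62.5 to 619 TPM with isotype. Dendritic cell markers summed to 9.25 to 15.3 TPM and 13.9 to 34.8 TPM, with 3 of 7 tested called lower and 1 higher, and Clec9a at a median of 0. NK cell markers summed to 60.6 to 168 TPM and 137 to 293 TPM, with 2 of 3 tested called lower. These calls also depend on libraries 16 and 19. Without them 0 of 11 macrophage and monocyte, 2 of 7 dendritic cell and 0 of 3 NK cell markers were called lower. In that fit 0 of these markers were called higher, and 5.2% of all genes were called lower. With all libraries, 1 of 2 B cell markers tested was called higher, and 0 without 16 and 19. Of 4 erythroid, 8 fibroblast and fibrosarcoma and 3 neutrophil markers tested, 0 were called. The T cell markers had a median of -0.66, with 2 of 12 called lower. Without libraries 16 and 19 their median was -0.02, with 0 lower and 1 higher. The endothelial sums were 432 to 2468 TPM and 216 to 382 TPM, but only 1 of the 5 markers had a median of at least 1 TPM. Cdh5 and Tek had a median of 0. Of the 2 tested, Pecam1 had 1.74 and Vwf -0.04, so the sum does not stand for the list. The part of these markers in the members' fall was not tested.

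The other comparisons of the libraries labelled bulk tumour also called no member. For anti-PD-1 in the CZA arm the members' median was 0.06 against 0.25 over all genes, with 2 members and 13.1% of all genes at an unadjusted limma p under 0.05 and with 0.278% of genes called higher and 0.0075% lower. Groups overlapped in all members, against 0.308% of all genes fully below and 2.09% fully above. Psmd10 had the smallest p. It was at 0.885, 9.72, 109, 0 and 0.199 TPM with isotype and at 24.2, 20.3, 18.8, 24.6 and 19.4 TPM with anti-PD-1, a log2 change of 2.21 (SE 0.90, limma adjusted p = 0.298). Library T986, at 109 TPM, lay above the anti-PD-1 group and the other 4 below it, and without T986 the change was 3.33 (limma adjusted p = 0.025).

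For CZA+DAV132 against CZA under anti-PD-1 the median was -0.57 against -0.19, with 9 members and 7.58% of all genes at an unadjusted limma p under 0.05 and 0% of all genes called. Psma2 had the smallest p, with -0.64 (SE 0.22, limma adjusted p = 0.415), and 4 of 35 members lay fully below, against 1.91% of all genes, and 0 fully above, against 0.233%. Under isotype the median was 0.30 against 0.21, with 0 members and 10.9% of all genes at an unadjusted limma p under 0.05 and 0.113% of genes called higher. Psmd8 had the smallest p, with 0.91 (SE 0.45, limma adjusted p = 0.48), and 1 member, Psma7, lay fully above, against 1.85% of all genes, and 0 fully below, against 0.39%. The interaction had a median of -0.79 against -0.42, and of -0.66 against -0.30 without T026. An unadjusted limma p under 0.05 was found for 10 members and 10.3% of all genes, and 0.045% of genes were called lower. Psma7 had the smallest p there, with -1.13 (SE 0.36, limma adjusted p = 0.34).

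The members named in every comparison were Psmb5 and Psmd14. In the libraries labelled bulk tumour Psmb5 had -0.52 (SE 0.34) and 0.48 (SE 0.32) for anti-PD-1 in the CZA+DAV132 and CZA arms, and -0.48 (SE 0.32) and 0.52 (SE 0.34) for CZA+DAV132 against CZA under anti-PD-1 and isotype. Psmd14 had, in the same order, -0.94 (SE 0.53), -0.70 (SE 0.50), -0.67 (SE 0.50) and -0.43 (SE 0.53). Their interactions had limma adjusted p of 0.478 and 0.923. No value passed the limma test.

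Other genes of the pathway, for anti-PD-1 against isotype in CD8 cells of the CZA+DAV132 arm, were in part called lower, as were 19.4% of all genes. Of the 5 core assembly chaperones 4 were called lower, with Psmg1 at -1.33 (limma adjusted p = 0.0124) and Pomp, a maturation factor of the core, at -0.96 (limma adjusted p = 0.0186). Psmg4 had -0.64. Of 5 activators and inhibitors 4 were called lower, Psme1, Psme2, Psme3 and Psmf1, with -0.93 to -1.03, and Psme4 had -0.15. Of 6 other regulatory particle genes 3 were called lower, among them the deubiquitinase gene Uchl5 at -1.36 (limma adjusted p = 0.00589). Usp14, the other deubiquitinase of the particle, had 1.04 (SE 0.42, limma adjusted p = 0.0723).

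Among ubiquitin supply genes, the polyubiquitin gene Ubb fell by 1.40, the fusion gene Rps27a by 1.51 and Uba1, which activates ubiquitin, by 1.16 on the log2 scale. Uba6, another activating enzyme, had -0.27 (limma adjusted p = 0.389). Of 10 shuttle and unfolding genes 4 were called lower, and Vcp, the unfolding ATPase, had -0.51. Of 9 genes that control proteasome transcription 3 were called lower, Nfe2l2, Mafk and Maff. Nfe2l1 had 0.38 (SE 0.27, limma adjusted p = 0.318) and Ddi2, the protease that activates its product, 0.17 (SE 0.19, limma adjusted p = 0.558). Without libraries 16 and 19, where 5.2% of all genes were called lower, the calls of these lists came down to Psmg3, Sem1, Uchl5, Txnl1, Maff and Rps27a.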

How the data were processed

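The authors deposited 2 tables of TPM, one per set, and the submitters' processing notes name kallisto 0.45 and GRCm38. Which annotation served, and how transcripts became genes, is not given in the sources used here. Per the labels' protocols, RNA was extracted with Monarch reagents, ribosomal RNA was removed with RiboCop, and the NEBNext Ultra II Directional kit was used for libraries. Listed TPM summed to 956720 to 989078 per CD8 library and 970406 to 991092 in the other set, and every value column was used.

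Tests used log2(TPM + 1), which understates changes at low levels. A gene entered the test on reaching 1 TPM in 4 or more libraries, which left 12942 and 13326 genes and all 35 members. Per set, limma 3.58.1 (R 4.3.3) fitted the 4 group means (empirical Bayes, mean-variance trend, two-sided), with Benjamini-Hochberg adjustment over all genes tested, called under 0.05. The fit was checked on simulated data with independent genes, of which only a few were changed. For anti-PD-1 in the CZA+DAV132 arm it recovered 25% of log2 changes of 1 and 90.4% of changes of 2 in the CD8 set. In the set labelled bulk tumour these shares were 2.83% and 31.9%. For the interaction they were 8.91% and 57.6% in the CD8 set and 0% and 9.9% in the other. In the CD8 comparison of that arm 19.4% of genes were called lower, far more than were changed in the simulation. The adjusted cutoff is looser there, so the simulated shares do not describe that comparison. A member that was not called is in any case not shown to be unchanged.

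Named members are the 10 largest called changes of a comparison, or the smallest p where none passed, and Psmb5 and Psmd14 throughout. Other members, such as Psmb7, Psmd1 and Psmd4, were named for their role or level after their values were seen. The members and lists were chosen with earlier results of these data known. Members were matched by symbol to GENCODE M21, and 29 to RefSeq promoters. Reads that match several transcripts are divided by estimation in kallisto, and M21 names 4 pseudogenes of members. Alternatives were other pseudocounts, filters and scalings, array weights, only the groups compared and left-out libraries. Rescaling without 16 repeat entries (12 satellite and 4 simple repeats, all with few distinct 6-base words) was chosen after seeing the data. The results of 2 genes of the ubiquitin supply list are not reported here.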

Additional observations from a re-analysis of the deposited data

Results flagged for a closer look

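In 6 of 88 group tests a library stood apart from the rest of its group by Dixon's criterion, where chance gives about 5%. In CD8 cells of CZA with isotype, library 1 had a summed regulatory particle level of 1004 TPM against 1377 to 1521 TPM in the others. In CD8 cells of CZA+DAV132 with anti-PD-1, library 16 had a core to regulatory particle ratio of 3.02 against 3.56 to 3.67, and a ratio of Psmb5 to Psmb8 of 0.671 against 0.311 to 0.396. In the same group library 19 had Psmd4 at 29.1 TPM against 98.4 to 124 TPM. In the libraries labelled bulk tumour, T991 of CZA with isotype had a summed regulatory particle level of 2152 TPM against 1306 to 1481 TPM, with Psmd14 at 423 TPM. T026 of CZA+DAV132 with anti-PD-1 had 633 TPM against 1105 to 1297 TPM.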

How the results depend on the processing

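For anti-PD-1 against isotype in CD8 cells of the CZA+DAV132 arm, members called went from 25 to 11 without libraries 16 and 19. With only the groups compared the count was 15. All genes called lower were 19.4%, 5.2% and 6.6% in the same order. The count ranged from 18 without library 15 to 29 without library 20, where 11.9% and 29.8% of all genes were called lower. For CZA+DAV132 against CZA under anti-PD-1 in CD8 cells, 0 became 18 with a mean of at least 5 TPM and 16 with array weights. There 17.5% and 3.69% of all genes were called lower, against 0.0386%. Over left-out libraries the count ranged from 0 to 30, the latter without library 20, where 29.2% of all genes were called lower. In the libraries labelled bulk tumour, array weights called 1 member for anti-PD-1 in the CZA+DAV132 arm, where 1.32% of all genes were called lower. Left-out libraries called 0 to 1 for anti-PD-1 in the CZA arm. The 1 was found without T986, where 0.462% of all genes were called higher. The CD8 gap in mean log2 level between core and regulatory particle, 1.73, became 2.05 with medians over members and 1.98 with the chaperones counted in the regulatory particle, and the gap of 0.98 in the other set became 1.37 with the chaperones. Of the named members' changes, 5 turned sign and none of these passed the limma test: Psmb5 in CD8 cells for CZA+DAV132 against CZA under isotype, -0.25 to 0.02 over left-out libraries, the latter without library 14, and Psmd14 in the libraries labelled bulk tumour, -0.86 to 0.04 for the same comparison, the latter without T991, and, for the interaction, 0.22 with median-ratio scaling, 0.01 with TPM rescaled and -0.71 to 0.19 over left-out libraries, the latter without T987. The cause of each was not tested, apart from fewer libraries where some were left out. No paired analysis was possible because library names are not shared between groups. Without read counts, what depth limits could not be given.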
